A study of Mus musculus with 40 samples.

Results

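The genes described are 40 genes of DNA replication and deoxynucleotide synthesis, listed by symbol, whose RNA was followed in mouse macrophages through a course of lipopolysaccharide (LPS). Each of the 40 symbols matched 1 identifier of the deposited table, which holds 57010 gene identifiers, and all 40 passed the filter on low counts over the 40 libraries, with 12522 genes in all. They were sorted by role into the MCM helicase (Mcm2 to Mcm7, 6 genes), origin licensing and helicase activation (Cdc6, Cdt1, Mcm10, Cdc45 and Gins1 to Gins4, 8 genes), the sliding clamp, its loader and the single-strand binding protein RPA (Pcna, Rfc1 to Rfc5, Rpa1 and Rpa2, 8 genes), and the polymerases and primase (Pola1, Pola2, Pold1, Pold2, Pole, Prim1 and Prim2, 7 genes). The remaining roles are flap removal and ligation (Fen1 and Lig1, 2 genes), nucleotide synthesis (Rrm1, Rrm2, Tyms, Dut and Tk1, 5 genes), and maintenance methylation and chromatin assembly (Uhrf1, Dnmt1, Chaf1a and Chaf1b, 4 genes).

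The cells were bone marrow-derived macrophages, that is, primary cells cultured from mouse marrow for 6 days in L929-conditioned medium, a source of the growth factor M-CSF. KO cells carried the genotype OtulinFL/FL LysMCreTg/WT, that is, both copies of Otulin flanked by loxP sites and Cre recombinase driven from the LysM promoter of the myeloid lineage, and WT cells carried OtulinFL/FL without Cre. Otulin is a deubiquitinase that removes linear ubiquitin chains. Each genotype was sampled before LPS (0 h) and after 3, 6, 12 and 24 h of LPS (ultrapure, of Salmonella minnesota, at 500 ng/ml), with 4 biological replicates per group and 40 libraries in 10 groups. The floxed allele was common to both genotypes and no group carried Cre alone, so that loss of Otulin and presence of Cre cannot be told apart in any difference between KO and WT. The labels give no strain, age or sex of the mice, and cells that kept Otulin because LysM-driven Cre had not acted in them may remain in a KO culture. RNA was read by QuantSeq, a 3′ tag method in which 1 read marks the 3′ end of 1 transcript, so that levels, given as CPM (a gene's counts scaled to a common library size), need no division by transcript length.

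Before S phase, Cdc6 and Cdt1 load the MCM helicase onto origins of replication, and Cdc45 and the GINS complex, with Mcm10, turn it into the moving helicase. RPA then covers the single strands, primase and polymerase alpha start each new strand, replication factor C (the Rfc genes) loads the clamp PCNA, polymerases delta and epsilon extend, and Fen1 and Lig1 join the fragments of the lagging strand. Ribonucleotide reductase, thymidylate synthase, dUTPase and thymidine kinase supply the deoxynucleotides, most of these genes are known targets of the E2F transcription factors, and macrophages that divide in M-CSF are known to leave the cell cycle when they meet LPS.

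The libraries held 3615155 to 6829303 counts (median 4471933), and mean levels of the members over all libraries ran from 1.95 CPM for Pold2 to 422 CPM for Pcna. Otulin was counted in every library, at 27.5 to 51.6 CPM in KO against 27.6 to 47.4 CPM in WT, and passed the test between KO and WT at none of the 5 times (edgeR adjusted p = 0.0564 to 0.989). A 3′ tag outside the deleted part does not check the genotype labels. In the 10 libraries of KO replicate 3 and WT replicate 4, Xist lay at 0.25 to 2.24 CPM and Y-linked genes summed to 196 to 259 CPM. In the other 30 libraries Xist lay at 226 to 605 CPM and Y-linked genes at 0 to 0.542 CPM, so both sexes were present and unevenly placed in the replicate numbers. All 7 macrophage markers were counted, with a summed level of 2129 to 4317 CPM in KO against 2114 to 4332 CPM in WT. Markers of dividing marrow progenitors (8 genes, among them Kit, Cd34 and Mpo) summed to 0.404 to 9.09 CPM in KO against 1.49 to 10.2 CPM in WT, with group means of 5.08, 6.11, 3.62, 3.4 and 1.82 CPM in KO against 7.23, 6.69, 6.44, 3.47 and 2.74 CPM in WT at 0, 3, 6, 12 and 24 h. In both genotypes these means were lower at 24 h than at 0 h and than at 12 h. The 6 neutrophil markers summed to 15.2 to 52.6 CPM in KO against 26.5 to 73.5 CPM in WT. Of these, S100a8 and S100a9 were lower in KO than in WT at 3 h, at −0.76 and −1.08 log2 (edgeR adjusted p = 0.00526 each). S100a9 was also lower in KO at 24 h, at −1.31 log2 (edgeR adjusted p = 0.0387). Ly6g, Camp, Ltf and Retnlg lay below the filter on low counts and were tested in no comparison. Markers of B cells, of T and NK cells and of stromal cells stayed at or below 2.73 CPM in every library, and those of erythroid and megakaryocyte precursors (564 to 1068 CPM in KO, 426 to 1095 CPM in WT) were nearly all Pf4, with Hba-a1, Hbb-bs and Klf1 at 0 to 0.5 CPM in KO libraries and 0 to 1.27 CPM in WT libraries. The part of these cells in the results below was not tested. In bulk RNA, fewer cycling cells and less RNA per cycling cell cannot be told apart.

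After LPS most of the replication genes fell in both genotypes, and a few members (Mcm10, Pcna, Rfc1, Rfc2 and Rfc3) rose at some times. At 3 h, 22 of 40 members were lower in KO than at 0 h and 0 higher, against 25.7% lower and 22.9% higher among all 12037 genes tested in KO. In WT, 22 were lower and 0 higher, against 28.0% lower and 26.6% higher among 12151 genes. At 6 h, 34 members were lower and 2 higher in KO (36% and 28.7% of all genes), and 35 lower and 2 higher in WT (37.1% and 31.0%). At 12 h, 34 were lower and 1 higher in KO (34.0% and 30.7% of all genes), and 31 lower and 1 higher in WT (35.9% and 32.3%). At 24 h, 29 were lower and 3 higher in KO (33.0% and 32.8% of all genes), and 31 lower and 3 higher in WT (35.4% and 34.5%). The share of members that fell was therefore above the share among all genes at every time, and the share that rose was below it (edgeR quasi-likelihood F-test, Benjamini-Hochberg adjustment, threshold 0.05). The median change over the 40 members was −0.59, −1.38, −1.43 and −1.20 log2 in KO and −0.48, −1.29, −1.08 and −1.27 log2 in WT at 3, 6, 12 and 24 h. Over all genes tested the median was −0.11 log2 in KO and −0.086 log2 in WT at 6 h. The 4 comparisons of a genotype share their 0 h libraries, so that they are not independent of each other.

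The genotypes largely called the same members. How many of all genes were called in both genotypes was not counted, so this describes the members only. Lower in both were 20 members at 3 h (of 22 in KO and 22 in WT), 34 at 6 h (of 34 and 35), 30 at 12 h (of 34 and 31) and 29 at 24 h (of 29 and 31). The members that rose were Mcm10 and Rfc3 at 6 h, Rfc2 at 12 h, and Pcna, Rfc1 and Rfc2 at 24 h, each in both genotypes. The rise of Rfc2 at 12 h in WT, 0.23 ± 0.095 log2 (SE; edgeR adjusted p = 0.0384), did not pass without the filter on low counts (edgeR adjusted p = 0.179) or without WT replicate 1, 3 or 4 (edgeR adjusted p = 0.0671, 0.0614 and 0.256). Summed over the 40 members, the level was 2205 ± 95.2, 1669 ± 49, 1269 ± 31.6, 1223 ± 78.6 and 1625 ± 75.8 CPM in KO against 2191 ± 100, 1649 ± 136, 1225 ± 104, 1331 ± 103 and 1515 ± 38.6 CPM in WT at 0, 3, 6, 12 and 24 h (mean ± SD, n = 4), and Pcna, Rfc1 and Cdt1 make up much of the sum at the late times. The roles did not move as 1 block. Nucleotide synthesis genes summed to 39.1 ± 8.5 CPM at 12 h against 242 ± 12.7 CPM at 0 h in KO, and to 48.3 ± 6.1 CPM against 244 ± 14.4 CPM in WT. The clamp, loader and RPA genes summed to 879 ± 41.8 CPM at 24 h against 747.5 ± 110 CPM at 0 h in KO, and to 835 ± 23.3 CPM against 685 ± 15.7 CPM in WT (mean ± SD, n = 4 each). Within this sum, Pcna alone lay at 555 ± 41 CPM at 24 h against 438 ± 118 CPM at 0 h in KO. In WT it lay at 511 ± 12.5 CPM against 360 ± 24.5 CPM, so that the sum mainly follows Pcna.

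**Figure D1:**
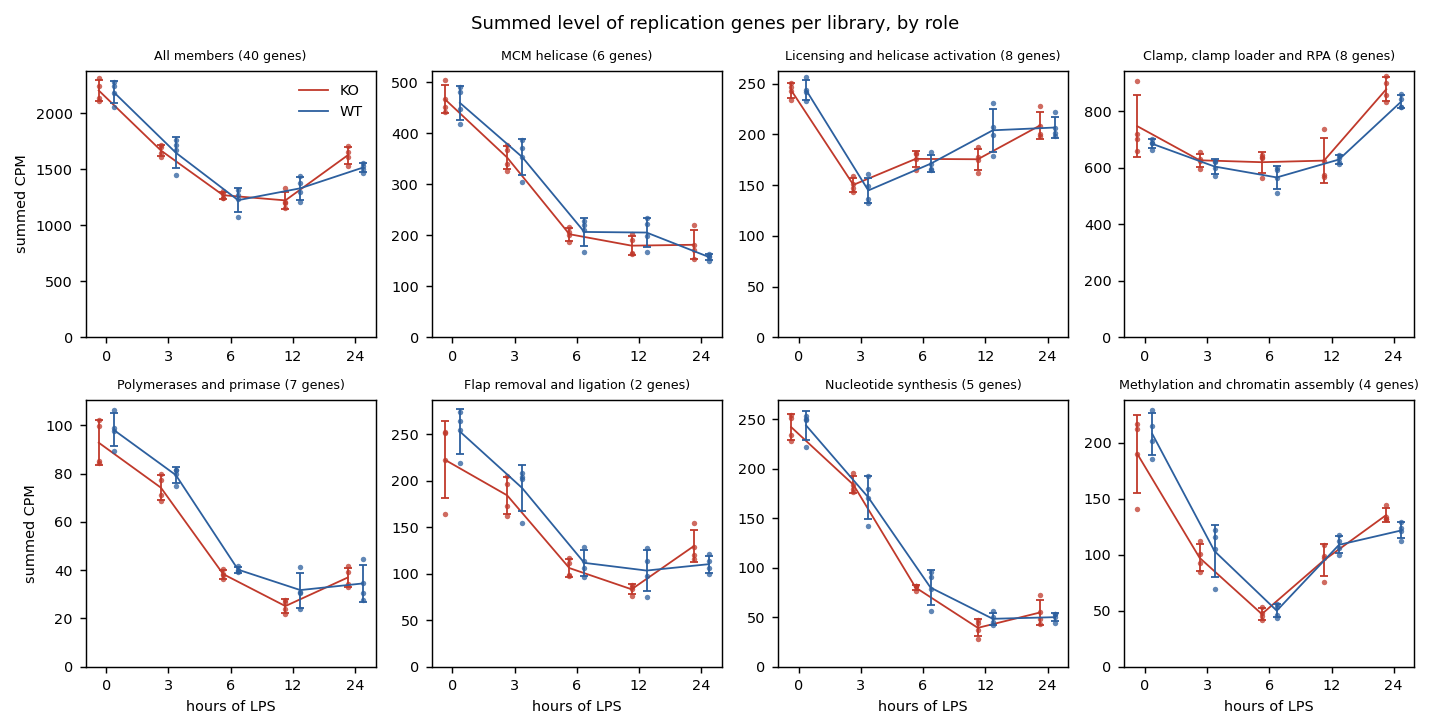
Summed level (CPM, linear axis from 0) of the members of each role against hours of LPS, with 1 point per library, KO left of WT, bars for the SD (n = 4) and lines through the group means. The nucleotide synthesis panel drops to 39.1 CPM in KO against 48.3 CPM in WT at 12 h, whereas the clamp, loader and RPA panel ends at 879 CPM in KO against 835 CPM in WT at 24 h. Of these last values, Pcna alone makes up 555 CPM in KO and 511 CPM in WT.

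Between neighbouring times most called members fell from 3 to 6 h and were split from 6 to 12 h, and from 12 to 24 h more rose than fell in KO, while in WT as many rose as fell. From 3 to 6 h, 25 members fell further and 3 rose in KO (21.6% and 19.0% of all genes), and 24 fell and 3 rose in WT (21.9% and 20.4%). Cdt1, Mcm10 and Rfc3 were the 3 that rose, in both genotypes. From 6 to 12 h, 12 rose and 12 fell in KO (22.7% and 22.0% of all genes), and 18 rose and 9 fell in WT (22.3% and 23.4%). In WT 9 rose and 8 fell without replicate 3, and 14 rose and 13 fell without replicate 4. The 12 that rose in KO, Mcm2, Mcm4, Cdc6, Gins3, Rfc1, Rfc2, Rpa1, Pola2, Fen1, Dnmt1, Chaf1a and Chaf1b, were among the 18 of WT. Mcm6, Mcm10, Rfc3, Pola1, Rrm1, Tyms, Dut and Tk1 fell in both (8 of 12 in KO and 8 of 9 in WT). From 12 to 24 h, 17 rose and 3 fell in KO (18.1% and 18.8% of all genes), and 8 rose and 8 fell in WT (19.1% and 20.5%), with medians over the members of 0.44 log2 in KO and 0.027 log2 in WT. The 8 that rose in WT, Pcna, Rfc1, Rfc2, Rfc4, Rpa1, Dut, Dnmt1 and Chaf1b, also rose in KO, as 8 of its 17. Mcm6, Mcm10 and Tyms fell in both, as 3 of 3 in KO and 3 of 8 in WT. Members called from 12 to 24 h numbered 14 to 20 when 1 KO replicate number was left out at all times, and 7 to 16 when 1 WT replicate number was, with 8 without WT replicate 2 and 7 without WT replicate 3.

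**Figure D2:**
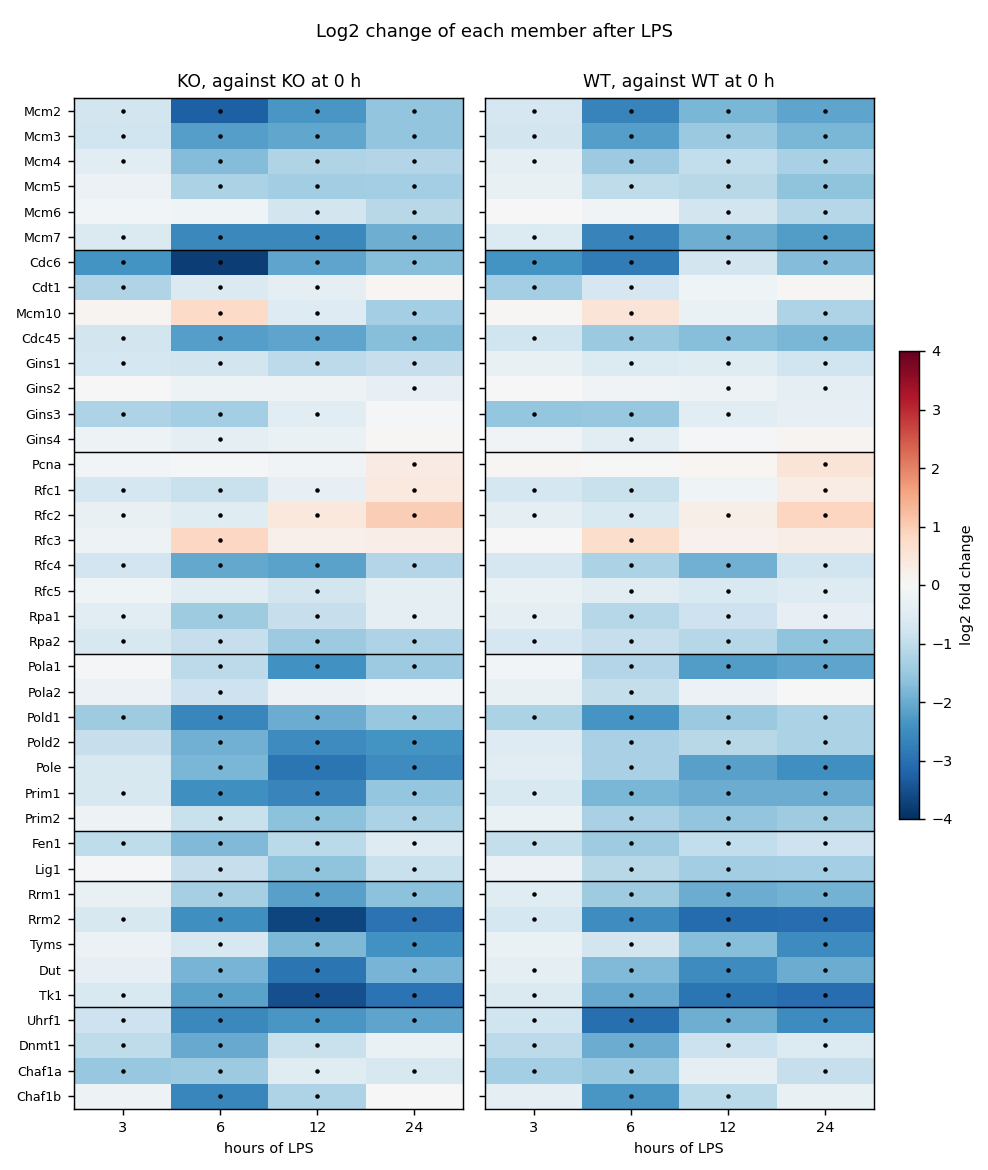
Log2 change of each of the 40 members against 0 h (colour scale in log2 units) at 3, 6, 12 and 24 h of LPS, KO columns left of WT columns, rows grouped by role between black lines, with a dot where the edgeR adjusted p was below 0.05. Most rows are on the lower side from 6 h on, and Pcna, Rfc1 and Rfc2 are on the higher side at 24 h in both genotypes.

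The 250 bases before the start of each gene (RefSeq, GRCm38.p6) were searched on both strands. The search was for letters that E2F and NF-Y factors are known to bind and for the CHR element of late cell cycle genes. Any link between these letters and the changes after LPS was not tested. Promoters were held for 33 of the 40 members, and those of Mcm4, Gins1, Gins2, Gins4, Rfc2, Pole and Prim2 were not used here. The E2F letters TTTCCCGC, TTTGGCGC, TTTCGCGC or TTTGCCGC stood in 7 of 33 members (21.2%), against 1.9% of 27025 promoters of the same length. The CCAAT letters stood in 21 of 33 (63.6%) against 34.5% of all promoters, and the CHR letters TTTGAA in 5 of 33 (15.2%) against 16.3%. The 7 with E2F letters were Mcm5, Mcm6, Mcm7, Cdc6, Gins3, Rfc3 and Pola1, that is 3 of the MCM genes, 2 licensing genes and 1 each of the clamp loader and polymerase groups, and none of the nucleotide synthesis genes. A match is a description of letters, and the absence of a match says only that these letters are not in this window. Shown here are the 3 MCM promoters with E2F letters, those of Cdc6, which fell most at 6 h in KO, and of Rfc3, which rose at that time, and that of Rrm2, which had the lowest change of all members at 12 h and holds none of these E2F letters. Capitals mark the E2F and CCAAT matches on either strand, overlapping where they share bases. The windows are chr8:75109259-75109508 on the plus strand for Mcm5, chr1:128359706-128359955 on the minus strand for Mcm6, chr5:138171884-138172133 on the minus strand for Mcm7, chr11:98907901-98908150 on the plus strand for Cdc6, chr5:151651209-151651458 on the minus strand for Rfc3 and chr12:24708004-24708253 on the plus strand for Rrm2.
Mcm5: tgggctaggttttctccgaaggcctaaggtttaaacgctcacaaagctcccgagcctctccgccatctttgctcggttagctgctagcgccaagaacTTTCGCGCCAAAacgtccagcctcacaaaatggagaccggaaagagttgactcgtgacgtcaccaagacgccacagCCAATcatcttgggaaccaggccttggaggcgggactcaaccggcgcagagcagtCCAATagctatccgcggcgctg
Mcm6: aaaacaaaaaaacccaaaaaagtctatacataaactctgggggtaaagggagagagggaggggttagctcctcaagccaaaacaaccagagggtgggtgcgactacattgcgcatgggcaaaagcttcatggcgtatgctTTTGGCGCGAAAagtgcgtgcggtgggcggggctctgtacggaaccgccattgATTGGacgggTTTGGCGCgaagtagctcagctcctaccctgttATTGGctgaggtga
Mcm7: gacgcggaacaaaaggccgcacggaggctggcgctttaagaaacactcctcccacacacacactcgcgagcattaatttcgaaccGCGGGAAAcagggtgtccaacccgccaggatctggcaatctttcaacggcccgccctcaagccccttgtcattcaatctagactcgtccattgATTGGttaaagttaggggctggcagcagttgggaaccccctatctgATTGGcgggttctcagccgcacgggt
Cdc6: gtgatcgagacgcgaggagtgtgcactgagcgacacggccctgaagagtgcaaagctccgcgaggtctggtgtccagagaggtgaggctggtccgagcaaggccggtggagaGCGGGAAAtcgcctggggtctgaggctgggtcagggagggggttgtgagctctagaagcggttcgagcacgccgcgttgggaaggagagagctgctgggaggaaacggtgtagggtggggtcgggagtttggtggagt
Rfc3: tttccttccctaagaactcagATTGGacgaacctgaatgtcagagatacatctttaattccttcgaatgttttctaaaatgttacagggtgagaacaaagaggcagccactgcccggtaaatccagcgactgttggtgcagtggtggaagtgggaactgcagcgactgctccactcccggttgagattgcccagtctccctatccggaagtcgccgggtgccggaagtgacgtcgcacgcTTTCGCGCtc
Rrm2: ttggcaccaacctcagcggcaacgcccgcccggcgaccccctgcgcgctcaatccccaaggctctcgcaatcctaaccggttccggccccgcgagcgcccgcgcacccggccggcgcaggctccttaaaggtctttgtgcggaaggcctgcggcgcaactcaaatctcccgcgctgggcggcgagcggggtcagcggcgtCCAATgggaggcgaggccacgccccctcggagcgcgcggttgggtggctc

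The MCM genes encode the subunits of the replicative helicase. At 6 h, 5 of 6 were lower than at 0 h in KO and 5 of 6 in WT. All 6 were lower at 12 h and at 24 h in both genotypes, with a median at 24 h of −1.47 log2 in KO and −1.73 log2 in WT. The share of all genes lower at 24 h was 33.0% in KO and 35.4% in WT. Mcm2 at 6 h lay at 2.92, 1.67, 4.59 and 3.31 CPM in KO, against 29.6, 30.2, 33.6 and 28.6 CPM at 0 h. In WT it lay at 5.98, 5.85, 3.96 and 4.06 CPM at 6 h, against 33.1, 35.2, 32.1 and 26.8 CPM at 0 h. All 6 h libraries of both genotypes lay far below all 0 h libraries, and the KO values at 6 h reached lower than the WT ones. Mcm2 fell by the largest amount among the MCM genes at this time in KO, at −3.28 ± 0.25 log2 in KO (SE; edgeR adjusted p = 1.89e-11) and −2.66 ± 0.20 log2 in WT (SE; edgeR adjusted p = 6.3e-12). By 24 h its mean was 10.0 ± 1.9 CPM in KO against 7.31 ± 0.85 CPM in WT (SD, n = 4), still −1.59 and −2.11 log2 from 0 h. Mcm7 at 24 h lay at 11.4, 10.4, 11.3 and 14.6 CPM in KO, against 45.9, 45.3, 50.7 and 46 CPM at 0 h. WT libraries lay at 8.77, 9.56, 9.9 and 13.8 CPM at 24 h, against 54, 54.9, 47.9 and 41.6 CPM at 0 h. The groups did not overlap, and Mcm7 had the largest change of the MCM genes at 24 h in WT, with −1.97 ± 0.15 log2 in KO (SE; edgeR adjusted p = 2.46e-11) and −2.24 ± 0.17 log2 in WT (SE; edgeR adjusted p = 1.81e-11). The last exon of Mcm7 overlaps an exon of Cops6 on the opposite strand, and Cops6 stood at −0.22 log2 in KO and −0.28 log2 in WT. Whether that exon lies at the 3′ end of the other gene was not looked at, here or for the overlaps below. Mcm4 at 6 h lay at 34.3, 26.8, 29.8 and 19.3 CPM in KO, against 93.6, 88.1, 86.6 and 92.8 CPM at 0 h. The WT libraries were at 35.9, 33.8, 35.3 and 20.3 CPM at 6 h, against 90.3, 82.7, 85.4 and 83.3 CPM at 0 h. Replicate 4 was the lowest library at 6 h in both genotypes, and the fall passed the test without any 1 replicate number, at −1.72 ± 0.14 log2 in KO (SE; edgeR adjusted p = 8.25e-11) and −1.46 ± 0.15 log2 in WT (SE; edgeR adjusted p = 4.8e-09). Mcm6 departed from this course. It averaged 126, 119, 114, 76.2 and 58.3 CPM in KO against 119.9, 118, 109, 72.9 and 54.2 CPM in WT at 0, 3, 6, 12 and 24 h, so that the 6 h libraries still overlapped those of 0 h, and the fall came at 12 and 24 h. At 24 h its libraries lay at 55.6, 54.9, 52.8 and 69.9 CPM in KO, against 156, 109.5, 124 and 115 CPM at 0 h. In WT they lay at 52.6, 55, 58.8 and 50.3 CPM, against 123, 124, 116 and 117 CPM at 0 h. No 24 h library reached the 0 h range, and the change was −1.11 ± 0.11 log2 in KO (SE; edgeR adjusted p = 2.89e-09) and −1.15 ± 0.086 log2 in WT (SE; edgeR adjusted p = 7.47e-12). Mcm3 and Mcm5, given by their means, stood at 25.1 and 24.6 CPM in KO at 6 h and at 24.9 and 28.9 CPM in WT, with −2.22 and −1.27 log2 in KO and −2.22 and −1.01 log2 in WT, each past the test.

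The genes of licensing and helicase activation spread more widely than the helicase itself. Of 8 genes, 6 were lower and 1 higher at 6 h in KO and likewise in WT. At 24 h 5 were lower and 0 higher in each genotype. Among all genes at 24 h, 33.0% were lower and 32.8% higher in KO, and 35.4% and 34.5% in WT. Cdc6, the ATPase that loads the helicase, had the largest fall of the 40 members at 6 h in KO. It lay at 0.897, 0.334, 1.15 and 1.65 CPM in KO at 6 h, against 14.2, 14.2, 13.6 and 14 CPM at 0 h. Levels in WT were 1.71, 1.27, 1.22 and 2.79 CPM, against 12.9, 11.8, 12.5 and 12 CPM at 0 h. The groups did not overlap, and the KO group at 6 h rests on 15 counts in all. Cdc6 changed by −3.75 ± 0.38 log2 in KO (SE; edgeR adjusted p = 5.07e-09) and −2.79 ± 0.27 log2 in WT (SE; edgeR adjusted p = 8.86e-10). At 12 h it had come back part of the way, to 3.21 ± 1.5 CPM in KO against 7.33 ± 2.5 CPM in WT (SD, n = 4), and at 24 h it stood at 4.22 ± 1.7 CPM in KO against 3.73 ± 0.81 CPM in WT. Cdt1, its partner in loading, fell early and recovered fully. At 3 h its libraries lay at 52, 49, 56.9 and 47.3 CPM in KO, against 119.5, 112, 122 and 115 CPM at 0 h. WT cells gave 51.2, 50.8, 37.8 and 45.1 CPM at 3 h, against 121, 116, 120 and 116 CPM at 0 h. Every 3 h library was below every 0 h library, with −1.20 ± 0.097 log2 in KO (SE; edgeR adjusted p = 1.39e-10) and −1.35 ± 0.097 log2 in WT (SE; edgeR adjusted p = 4.35e-12). At 24 h its libraries overlapped those of 0 h in both genotypes, and the differences from 0 h were 0.080 ± 0.093 log2 (SE; edgeR adjusted p = 0.457) in KO and 0.039 ± 0.090 log2 (SE; edgeR adjusted p = 0.711) in WT. Mcm10, which helps to activate the helicase, ran the other way. At 6 h its libraries lay at 31, 28.8, 26.1 and 32 CPM in KO, against 19.5, 19.4, 14.9 and 14.4 CPM at 0 h. The WT values were 28, 28.2, 33.2 and 24.8 CPM at 6 h, against 25.4, 18.2, 17 and 17.8 CPM at 0 h. The KO groups did not overlap, while in WT 1 library at 0 h lay above the lowest at 6 h. Mcm10 rose at 6 h by 0.76 ± 0.15 log2 in KO (SE; edgeR adjusted p = 0.000128) and 0.52 ± 0.13 log2 in WT (SE; edgeR adjusted p = 0.00138). It then fell, to 7.15, 5.09, 7.28 and 6.89 CPM in KO against 6.88, 7.56, 8.2 and 10.6 CPM in WT at 24 h, below all 0 h libraries, with −1.37 ± 0.17 log2 in KO (SE; edgeR adjusted p = 2.53e-07) and −1.25 ± 0.16 log2 in WT (SE; edgeR adjusted p = 8.86e-08). Cdc45, a subunit of the active helicase, lay at 3.28, 1.99, 1.62 and 4.03 CPM in KO at 24 h, against 11.1, 7.91, 11.7 and 5.95 CPM at 0 h. In WT it lay at 2.37, 2.67, 1.86 and 2.76 CPM, against 9.66, 7.4, 8.76 and 7.94 CPM at 0 h. Its groups did not overlap, and its change of −1.71 ± 0.27 log2 in KO (SE; edgeR adjusted p = 6.51e-06) and −1.83 ± 0.20 log2 in WT (SE; edgeR adjusted p = 1.57e-08) was the largest in this role at 24 h in WT. Among the 4 GINS subunits, Gins3 moved most. At 3 h its libraries lay at 3.06, 5.92, 6.19 and 5.19 CPM in KO, against 10.3, 11.4, 12.8 and 14.4 CPM at 0 h. WT libraries lay at 5.47, 5.77, 3.56 and 5.34 CPM, against 17.1, 15.8, 15.6 and 11.4 CPM at 0 h. The groups were apart at 3 h, at −1.25 ± 0.20 log2 in KO (SE; edgeR adjusted p = 9.34e-06) and −1.56 ± 0.21 log2 in WT (SE; edgeR adjusted p = 5.33e-07), and overlapped again at 24 h, where the differences were −0.076 log2 in KO and −0.32 log2 in WT (edgeR adjusted p = 0.727 and 0.122). Gins1, Gins2 and Gins4 stayed within −1.04 log2 of 0 h at every time in both genotypes. The last exon of Gins2 overlaps an exon of Gse1 on the opposite strand, so that their tags may not be told apart.

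The members higher at 24 h than at 0 h all belonged to the clamp, its loader and RPA. At that time 3 of 8 were higher and 3 lower in KO, and 3 were higher and 4 lower in WT. Of all genes, 32.8% were higher and 33.0% lower in KO, and 34.5% and 35.4% in WT. The numbers higher in this role were near these shares. Its median was −0.054 log2 in KO and −0.041 log2 in WT. Pcna, the sliding clamp, lay at 599, 506, 576 and 539 CPM in KO at 24 h, against 608, 334, 403 and 408 CPM at 0 h. The WT libraries were at 516, 505, 526 and 498 CPM at 24 h, against 363, 325, 368 and 383 CPM at 0 h. In KO 1 library at 0 h lay above all those at 24 h and the groups overlapped, whereas in WT they did not. The change was 0.34 ± 0.15 log2 in KO (SE; edgeR adjusted p = 0.0492) and 0.50 ± 0.073 log2 in WT (SE; edgeR adjusted p = 1.04e-06), and the KO call was lost without replicate 2, 3 or 4 (edgeR adjusted p = 0.121, 0.194 and 0.119). At 3, 6 and 12 h Pcna did not pass the test in either genotype, with differences from 0 h of −0.11, −0.053 and −0.14 log2 in KO and 0.061, 0.00073 and 0.069 log2 in WT. The pseudogene Pcna-ps2 drew 172 counts over the 40 libraries, against 82169 for Pcna. Rfc1, the large subunit of the clamp loader, first fell and then rose. It averaged 114, 71.2, 62.1, 92.1 and 149.5 CPM in KO against 122, 75.8, 66.9, 110 and 151 CPM in WT at 0, 3, 6, 12 and 24 h. At 24 h its libraries lay at 149.7, 155.5, 160.5 and 133 CPM in KO, against 92.3, 125, 123 and 115.5 CPM at 0 h. Levels in WT were 134, 154, 148 and 168 CPM, against 128, 128, 119 and 114 CPM at 0 h. The groups did not overlap, and Rfc1 rose by 0.39 ± 0.11 log2 in KO (SE; edgeR adjusted p = 0.00242) and 0.30 ± 0.084 log2 in WT (SE; edgeR adjusted p = 0.00242). Rfc2, a small subunit, lay at 60.6, 66.2, 54.8 and 61.8 CPM in KO at 24 h, against 31.4, 33.2, 29.4 and 27.9 CPM at 0 h. WT cells gave 57.9, 56.7, 63.1 and 68.9 CPM, against 31.8, 33.7, 37.7 and 31.3 CPM at 0 h. All 24 h libraries were well above all 0 h ones, with 0.99 ± 0.11 log2 in KO (SE; edgeR adjusted p = 1.19e-08) and 0.87 ± 0.091 log2 in WT (SE; edgeR adjusted p = 4.57e-09), and at 6 h all had been below, with −0.50 log2 in KO and −0.60 log2 in WT. The last exon of Rfc2 overlaps an exon of Lat2, an adaptor protein gene on the opposite strand that drew 103819 counts against 7152 for Rfc2. Lat2 moved the same way, by −0.44 and 0.56 log2 in KO and −0.48 and 0.52 log2 in WT at 6 and 24 h. How strand was handled in counting is not given in the sources used here, so the tags of the pair may not be told apart. Rfc3, another small subunit, rose at 6 h. It lay at 39.5, 36.5, 46.7 and 35.8 CPM in KO at 6 h, against 21.2, 23, 22.3 and 21.3 CPM at 0 h. The WT values were 42.7, 38.4, 34.1 and 40.6 CPM, against 26, 23.8, 22.2 and 24 CPM at 0 h. No library overlapped, and the rise was 0.83 ± 0.12 log2 in KO (SE; edgeR adjusted p = 2e-06) and 0.69 ± 0.12 log2 in WT (SE; edgeR adjusted p = 1.09e-05). At 24 h it no longer passed the test, at 0.27 log2 in KO and 0.26 log2 in WT (edgeR adjusted p = 0.0614 and 0.0564). Rfc4, in contrast, fell. It lay at 0.746, 1.21, 1.5 and 2.03 CPM in KO at 12 h, against 7, 4.57, 6.32 and 6.31 CPM at 0 h. In WT it lay at 0.538, 0.813, 1.3 and 1.99 CPM, against 4.63, 4.77, 4.87 and 4.05 CPM at 0 h. These few counts gave −2.14 ± 0.33 log2 in KO (SE; edgeR adjusted p = 3.4e-06) and −1.93 ± 0.40 log2 in WT (SE; edgeR adjusted p = 0.000127). The last exon of Rfc4 overlaps an exon of Eif4a2, which drew 27584 counts against 591 and stood at −0.51 log2 in KO and −0.54 log2 in WT at 12 h. Rpa2, the middle subunit of RPA, lay at 26.1, 18.2, 27.7 and 31.6 CPM in KO at 24 h, against 52.9, 68.4, 62.6 and 58.7 CPM at 0 h. WT libraries lay at 20.9, 19.6, 20.4 and 28.5 CPM, against 72.2, 76.1, 60.5 and 62 CPM at 0 h. The groups were apart in both genotypes, at −1.22 ± 0.15 log2 in KO (SE; edgeR adjusted p = 1.74e-07) and −1.61 ± 0.16 log2 in WT (SE; edgeR adjusted p = 5.4e-09). Rpa1, the large subunit, was lower at 6 h, with −1.41 log2 in KO and −1.13 log2 in WT, and by 24 h stood at −0.39 and −0.34 log2. Rfc5 was nearer to its 0 h level, at −0.73 log2 in KO and −0.60 log2 in WT at 12 h. The last exon of Rfc5 overlaps an exon of Wsb2 on the opposite strand, which drew 24160 counts against 2476. Wsb2 stood at −0.14 log2 in KO and −0.047 log2 in WT at 12 h, and the tags of the pair may not be told apart.

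All 7 polymerase and primase genes were lower at 6 h in KO and all 7 in WT, with medians of −1.84 and −1.30 log2. At 24 h 6 of 7 were lower in each genotype, beside 33.0% of all genes in KO and 35.4% in WT. Pole, the catalytic subunit of polymerase epsilon, lay at 1.35, 0.886, 1.01 and 2.18 CPM in KO at 24 h, against 9.93, 10.5, 6.5 and 5.41 CPM at 0 h. The WT libraries were at 1.42, 1.56, 1.7 and 1.15 CPM, against 9.52, 8.06, 9.25 and 5.61 CPM at 0 h. The 24 h libraries held few counts and none reached the 0 h range, with −2.53 ± 0.36 log2 in KO (SE; edgeR adjusted p = 1.4e-06) and −2.44 ± 0.26 log2 in WT (SE; edgeR adjusted p = 7.75e-09). Pola1, the catalytic subunit of polymerase alpha, reached its lowest mean at 12 h in both genotypes. It lay there at 7.96, 9.91, 8.25 and 4.32 CPM in KO, against 37, 48.1, 40.7 and 38.2 CPM at 0 h. Levels in WT were 7.54, 10.8, 8.81 and 12.9 CPM, against 43.1, 53.3, 48 and 43 CPM at 0 h. No libraries overlapped, and the fall was −2.43 ± 0.19 log2 in KO (SE; edgeR adjusted p = 4.28e-11) and −2.24 ± 0.18 log2 in WT (SE; edgeR adjusted p = 1.31e-10). Pola2, the second subunit of polymerase alpha, fell less and returned. At 6 h its libraries lay at 4.94, 6.69, 3.15 and 6.89 CPM in KO, against 10.1, 9.88, 7.62 and 9.73 CPM at 0 h. WT cells gave 4.7, 6.1, 5.18 and 7.35 CPM, against 10.9, 11.4, 11.2 and 11.1 CPM at 0 h. The 6 h libraries were below the 0 h libraries in both genotypes, with −0.81 ± 0.23 log2 in KO (SE; edgeR adjusted p = 0.00318) and −0.94 ± 0.20 log2 in WT (SE; edgeR adjusted p = 0.000231). At 24 h the difference was −0.094 log2 in KO and −0.030 log2 in WT and the groups overlapped (edgeR adjusted p = 0.704 and 0.894). The primase genes Prim1 and Prim2 fell at 6 h, with changes of −2.44 and −0.90 log2 in KO and −1.82 and −1.29 log2 in WT. For polymerase delta, Pold1 fell, with −2.60 log2 in KO and −2.36 log2 in WT at 6 h. Pold2 was the lowest member, with 20 or fewer counts per group in KO at 6, 12 and 24 h, and its values there are imprecise. Fen1, the flap endonuclease, lay at 19.1, 14.7, 18.3 and 18.5 CPM in KO at 6 h, against 52, 56.8, 70.4 and 57.8 CPM at 0 h. The WT values were 27.6, 22.6, 25 and 19.8 CPM, against 65.3, 62.2, 60.4 and 64 CPM at 0 h. The 6 h and 0 h libraries did not overlap, and Fen1 fell, with −1.75 ± 0.14 log2 in KO (SE; edgeR adjusted p = 3.58e-11) and −1.41 ± 0.14 log2 in WT (SE; edgeR adjusted p = 1.64e-09). Lig1, the ligase of the lagging strand, lay at 53.7, 58, 65.8 and 40.7 CPM in KO at 12 h, against 112, 195, 182 and 165 CPM at 0 h. In WT it lay at 47.6, 72.1, 70.8 and 97.8 CPM, against 199, 211.5, 195 and 155 CPM at 0 h. The fall left no overlap, at −1.60 ± 0.17 log2 in KO (SE; edgeR adjusted p = 4.17e-08) and −1.40 ± 0.17 log2 in WT (SE; edgeR adjusted p = 5.63e-07).

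The nucleotide synthesis genes moved as a group. All 5 were lower than at 0 h at 6, 12 and 24 h in KO and all 5 in WT. For comparison, 33.0% of all genes were lower at 24 h in KO and 35.4% in WT. The median of the 5 reached −2.91 log2 in KO and −2.53 log2 in WT at 12 h, and −2.42 and −2.53 log2 at 24 h. Rrm2, the small subunit of ribonucleotide reductase, lay at 3.73, 5.46, 2.5 and 6.1 CPM in KO at 12 h, against 73.8, 46.2, 57.6 and 47.8 CPM at 0 h. WT libraries lay at 3.23, 4.33, 6.53 and 9.44 CPM, against 49.4, 52.1, 49.99 and 49.2 CPM at 0 h. Every 12 h library was far below every 0 h library. Rrm2 had the lowest log2 change of all 40 members at 12 h in both genotypes, −3.66 ± 0.29 log2 in KO (SE; edgeR adjusted p = 3.39e-10) and −3.06 ± 0.22 log2 in WT (SE; edgeR adjusted p = 4.32e-11). Rrm1, the large subunit, fell less far. It lay at 19.9, 24.5, 12.3 and 22.9 CPM in KO at 12 h, against 84, 88.6, 93.3 and 87.2 CPM at 0 h. The WT libraries were at 24.8, 21.4, 29.9 and 20.1 CPM, against 104, 98.3, 98 and 84.6 CPM at 0 h. The groups were apart, at −2.16 ± 0.13 log2 in KO (SE; edgeR adjusted p = 5.37e-13) and −1.99 ± 0.15 log2 in WT (SE; edgeR adjusted p = 3.46e-11). Tk1, the thymidine kinase of S phase, lay at 2.98, 4.25, 3.75 and 1.52 CPM in KO at 12 h, against 36.5, 41.4, 35.7 and 31.7 CPM at 0 h. Levels in WT were 2.69, 4.33, 5.22 and 5.71 CPM, against 41.1, 33.7, 37.5 and 27.7 CPM at 0 h. Its fall without overlap was −3.52 ± 0.22 log2 in KO (SE; edgeR adjusted p = 3.54e-13) and −2.93 ± 0.19 log2 in WT (SE; edgeR adjusted p = 2.82e-13). Tyms, the thymidylate synthase, was slower, with means of 22.4, 19, 14.5, 6.47 and 4.13 CPM in KO against 23.4, 19.4, 14, 7.21 and 4.16 CPM in WT at 0, 3, 6, 12 and 24 h. At 24 h its libraries lay at 3.48, 3.76, 4.24 and 5.04 CPM in KO, against 23.3, 22.2, 22.5 and 21.4 CPM at 0 h. WT cells gave 5.22, 3.34, 2.78 and 5.28 CPM, against 23.1, 25.6, 20.8 and 24 CPM at 0 h. No library of 24 h came near the 0 h range, with −2.42 ± 0.17 log2 in KO (SE; edgeR adjusted p = 4.96e-12) and −2.53 ± 0.18 log2 in WT (SE; edgeR adjusted p = 3.16e-12). Dut, the dUTPase, lay at 5.22, 5.06, 5.5 and 5.08 CPM in KO at 12 h, against 36.8, 36.2, 42.6 and 40.2 CPM at 0 h. The WT values were 5.65, 6.23, 7.34 and 7.45 CPM, against 35.1, 41, 43 and 36.9 CPM at 0 h. The fall of −2.91 ± 0.20 log2 in KO (SE; edgeR adjusted p = 4.27e-12) and −2.53 ± 0.17 log2 in WT (SE; edgeR adjusted p = 1.2e-12) was followed by means of 10.5 ± 4.0 CPM in KO against 9.86 ± 2.6 CPM in WT at 24 h (SD, n = 4).

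The genes that copy DNA methylation and chromatin behind the fork were all 4 lower at 6 h in both genotypes. At 24 h 2 of 4 were lower in KO and 3 of 4 in WT, beside 33.0% and 35.4% of all genes. The KO count at 24 h is near that share, and with 4 genes the counts at 24 h say little about the role. Uhrf1, which recognises half-methylated DNA, lay at 5.38, 7.69, 4.3 and 5.24 CPM in KO at 6 h, against 27.5, 38.2, 41.2 and 26.1 CPM at 0 h. In WT it lay at 4.49, 5.09, 5.18 and 3.3 CPM, against 41, 39.5, 34.9 and 29.1 CPM at 0 h. The groups did not overlap, and Uhrf1 fell, with −2.59 ± 0.20 log2 in KO (SE; edgeR adjusted p = 3.33e-11) and −3.01 ± 0.27 log2 in WT (SE; edgeR adjusted p = 1.32e-09), and was still lower at 24 h, at −2.11 log2 in KO and −2.52 log2 in WT. Dnmt1, the maintenance methyltransferase, averaged 131, 65.8, 33, 71.9 and 109 CPM in KO against 144, 69.4, 36.6, 80.3 and 99.1 CPM in WT at 0, 3, 6, 12 and 24 h. At 24 h it stood at −0.27 ± 0.15 log2 (SE; edgeR adjusted p = 0.128) in KO and −0.54 ± 0.11 log2 (SE; edgeR adjusted p = 8.15e-05) in WT, so that it passed the test in WT, while the difference between the genotypes' changes was not called. Chaf1b, a subunit of chromatin assembly factor 1, lay at 1.35, 2.01, 0.86 and 0.276 CPM in KO at 6 h, against 10.4, 5.56, 4.09 and 7.03 CPM at 0 h. WT libraries lay at 1.07, 0.763, 2.44 and 1.27 CPM, against 8.3, 5.59, 7.63 and 5.3 CPM at 0 h. The KO group at 6 h holds 16 counts in all. No 6 h library reached the 0 h range, and the change was −2.61 ± 0.38 log2 in KO (SE; edgeR adjusted p = 1.59e-06) and −2.32 ± 0.31 log2 in WT (SE; edgeR adjusted p = 2.79e-07). By 24 h the libraries overlapped those of 0 h again, at −0.0091 log2 in KO and −0.30 log2 in WT (edgeR adjusted p = 0.978 and 0.252). Chaf1a, the large subunit, stood at −1.45 log2 at 6 h and −0.65 log2 at 24 h in KO, and at −1.50 and −0.93 log2 in WT. The last exon of Chaf1a overlaps an exon of Ubxn6 on the opposite strand.

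**Figure D3:**
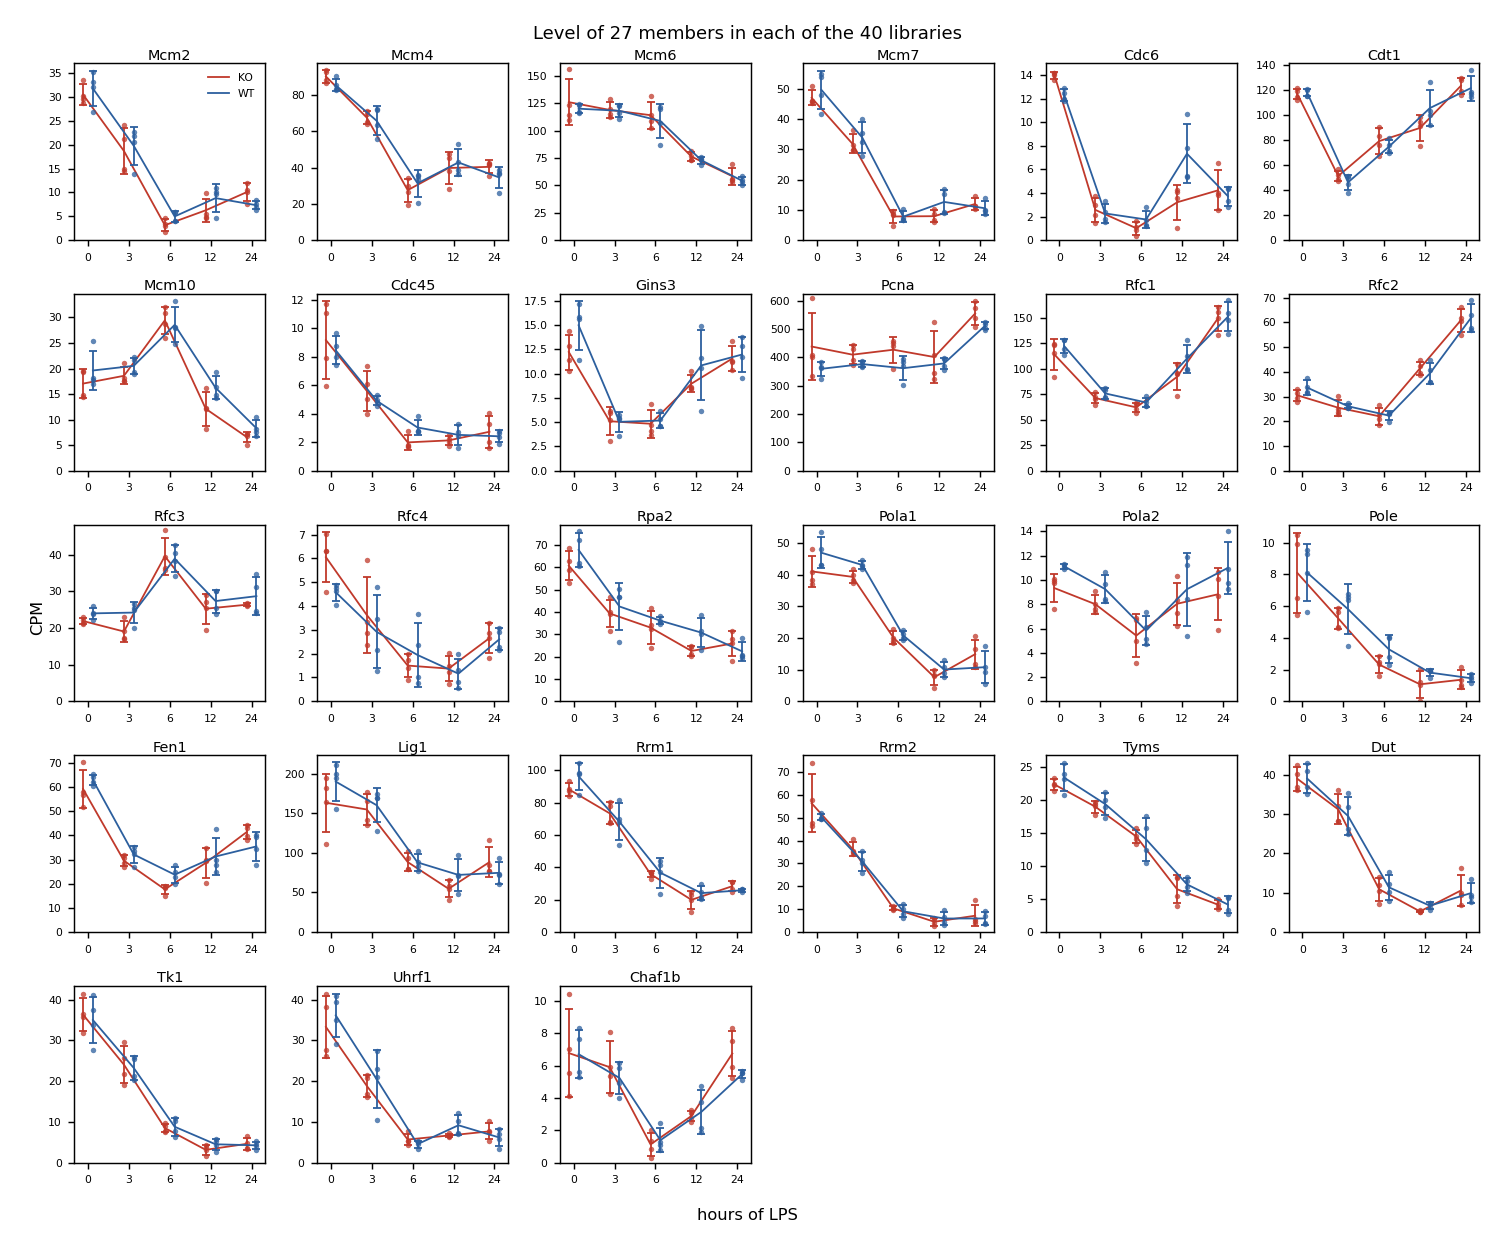
Level (CPM, linear axes from 0) of 27 members against hours of LPS, with 1 point per library, KO left of WT, bars for the SD (n = 4) and lines through the group means. Rrm2 and Tk1 are lowest at 12 h in KO, Mcm10 and Rfc3 peak at 6 h, Cdt1 is lowest at 3 h, and Rfc2 and Rfc1 end above their 0 h values at 24 h.

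Between KO and WT at the same time, no member passed the test. At 0 h 0 of 40 members tested were called (0% of 11734 genes), at 3 h 0 of 40 (0.689% of 11035), at 6 h 0 of 34 (1.01% of 10518), at 12 h 0 of 35 (0.0464% of 10783) and at 24 h 0 of 38 (0.0809% of 11122). At an unadjusted p under 0.05 there were 0, 1, 3, 7 and 1 members at 0, 3, 6, 12 and 24 h, that is of 40, 40, 34, 35 and 38 tested, beside 7.67%, 11.7%, 12.0%, 7.72% and 7.46% of all genes. DESeq2 called 0 members at each time (edgeR quasi-likelihood F-test as the main test). With all-gene shares of at most 1.01%, a count of 0 among 34 to 40 members is what the background leaves room for, and it does not show that the genotypes are alike. Members below the filter in these fits of 8 libraries were Cdc6, Rfc4, Pold1, Pold2, Prim1 and Chaf1b at 6 h, Cdc45, Rfc4, Pold2, Pole and Prim1 at 12 h, and Pold2 and Pole at 24 h. The medians of the KO minus WT differences were −0.014, −0.0038, −0.042, −0.27 and 0.13 log2 at 0, 3, 6, 12 and 24 h, beside 0.0018, 0.0057, −0.0081, −0.0045 and 0.000057 log2 over all genes tested. At 12 h, 31 of 35 members were below 0, and at 24 h 29 of 38 were above 0. Members measured in the same 8 libraries are not independent of each other. The size of both medians changed when libraries were left out. That of 12 h was −0.17 log2 without WT replicate 4, with 28 of 35 members still below 0. Without KO replicate 3 and WT replicate 4 it was −0.18 log2, with 26 of 35 below 0. That of 24 h was 0.0062 log2 without KO replicate 4, with 18 of 38 members below 0.

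The members with the smallest p at each time are given as values. At 12 h Cdc6 lay at 4.23, 4.04, 1 and 3.56 CPM in KO, against 5.38, 5.42, 7.83 and 10.7 CPM in WT. All KO libraries were below all WT libraries, as also for Pold2 and Dut at that time, and the difference was −1.20 ± 0.36 log2 (SE; edgeR adjusted p = 0.352). Without the filter on low counts, Cdc6 at 12 h passed the test at −1.19 log2 (edgeR adjusted p = 0.0186), as did Mcm3 at −0.61 log2 (edgeR adjusted p = 0.0116). In 1 fit of all 40 libraries Cdc6 passed at −1.18 log2 (edgeR adjusted p = 0.0379). Rpa2 at 12 h lay at 20.2, 21, 24.8 and 24.1 CPM in KO, against 22.9, 31.4, 30.2 and 38.5 CPM in WT. The genotypes overlapped, and the difference was −0.47 ± 0.16 log2 (SE; edgeR adjusted p = 0.421). At 24 h Mcm2 lay at 12, 7.53, 10.1 and 10.6 CPM in KO, against 6.4, 6.9, 8.35 and 7.58 CPM in WT, and Mcm4 lay at 41.5, 35.2, 42.2 and 42.7 CPM in KO, against 37.2, 38.9, 36.2 and 25.7 CPM in WT. Both genes overlapped between the genotypes, with 0.45 ± 0.19 log2 (SE; edgeR adjusted p = 0.605) and 0.22 ± 0.12 log2 (SE; edgeR adjusted p = 0.73). At 6 h Fen1 lay at 19.1, 14.7, 18.3 and 18.5 CPM in KO, against 27.6, 22.6, 25 and 19.8 CPM in WT. All 4 KO libraries were below the 4 WT libraries, and the difference was −0.44 ± 0.14 log2 (SE; edgeR adjusted p = 0.199). Pcna at 6 h lay at 441, 358, 451 and 458 CPM in KO, against 394, 368.5, 383 and 301 CPM in WT. Its groups overlapped, at 0.22 ± 0.095 log2 (SE; edgeR adjusted p = 0.352). At 3 h Rfc3 lay at 17.2, 16.9, 23 and 19.1 CPM in KO, against 20.0, 24.9, 26.7 and 25.4 CPM in WT, and Rrm2 lay at 34.2, 40.9, 35.3 and 35 CPM in KO, against 35.5, 31.6, 30.2 and 25.9 CPM in WT. Neither gene separated the genotypes, with −0.32 ± 0.13 log2 (SE; edgeR adjusted p = 0.344) and 0.22 ± 0.11 log2 (SE; edgeR adjusted p = 0.44). Before LPS, Gins3 lay at 10.3, 11.4, 12.8 and 14.4 CPM in KO, against 17.1, 15.8, 15.6 and 11.4 CPM in WT, and Rfc4 lay at 7, 4.57, 6.32 and 6.31 CPM in KO, against 4.63, 4.77, 4.87 and 4.05 CPM in WT. These overlapped too, at −0.31 ± 0.15 log2 (SE; edgeR adjusted p = 0.647) and 0.38 ± 0.19 log2 (SE; edgeR adjusted p = 0.666). Counting members whose 4 KO and 4 WT libraries did not overlap gave Cdc6 above and Pola2 below at 0 h, Pola1 below at 3 h, Fen1 below at 6 h, Cdc6, Pold2 and Dut below at 12 h, and none at 24 h, of 40 members each time. Pola1 was barely apart, with a highest KO library of 41.63 CPM and a lowest WT library of 41.64 CPM. Pold2 at 12 h rests on 15 counts in KO and 23 in WT. Of the 12522 genes kept over all libraries, 5.02%, 5.99%, 7.28%, 4.72% and 4.33% did not overlap at 0, 3, 6, 12 and 24 h.

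**Figure D4:**
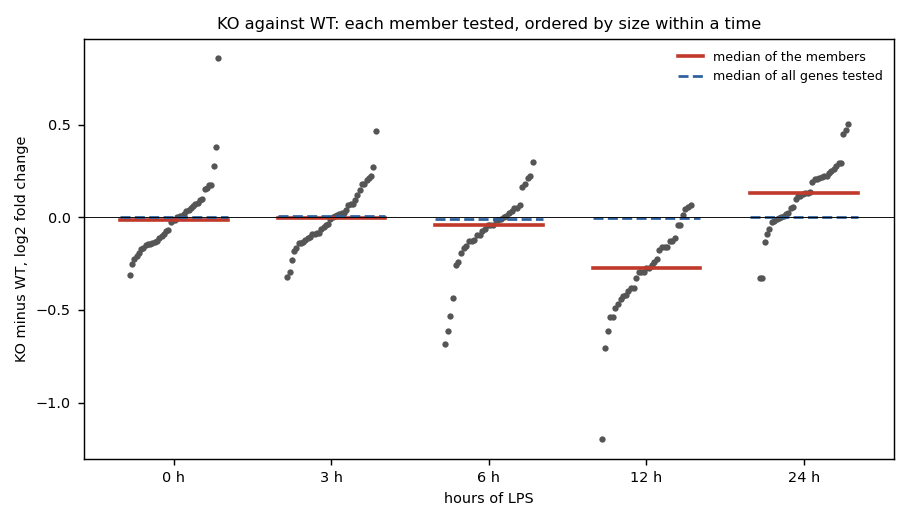
KO minus WT difference of each member (log2, 1 point per member tested) at 0, 3, 6, 12 and 24 h of LPS, with the median over the members and the median over all genes tested. The members centre on −0.27 log2 at 12 h and 0.13 log2 at 24 h, and none passed the test at any time.

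Whether LPS changed the members differently in KO and WT was tested as the difference of the changes, KO minus WT. No member was called at 3, 6, 12 or 24 h against 0 h or at 24 h against 6 h (edgeR; 0%, 0%, 0%, 0.00818% and 0.0606% of all genes called), and DESeq2 called 0 members in each. At an unadjusted p under 0.05 there were 0, 2, 3, 1 and 3 members in these 5 tests, of 40, 40, 40, 40 and 39 tested, beside 2.81%, 4.37%, 3.26%, 3.88% and 6.51% of all genes. The tests against 0 h share the 0 h libraries. The medians over the members were 0.031, −0.0088, −0.20 and 0.12 log2 at 3, 6, 12 and 24 h, with 36 of 40 members below 0 at 12 h and 30 of 40 above 0 at 24 h. The median at 12 h was −0.13 log2 without WT replicate 4 and −0.075 log2 without KO replicate 3 and WT replicate 4, and that at 24 h was 0.019 log2 without KO replicate 4. Cdc6 had the smallest p at 12 h, where the KO minus WT difference of the changes was −1.38 ± 0.35 log2 (SE; edgeR adjusted p = 1), and without the filter on low counts this difference was −1.40 log2 (edgeR adjusted p = 0.0157). From 6 to 24 h the changes of Fen1 and Mcm2 differed by 0.65 ± 0.19 log2 (SE; edgeR adjusted p = 0.284) and 1.13 ± 0.34 log2 (SE; edgeR adjusted p = 0.356). Since 17 members rose from 12 to 24 h in KO and 8 in WT, the difference over that step was also tested, a choice made after those counts were seen. It called 0 members of 38 tested (0% of 11486 genes; 8 members and 3.25% of all genes at an unadjusted p under 0.05; DESeq2 0). Over that step 34 of 38 members were above 0, with a median of 0.36 log2 against −0.010 log2 over all genes, and the median was 0.27 log2 without KO replicate 3 and WT replicate 4. The 3 smallest p belonged to Mcm3 at 0.86 ± 0.27 log2 (SE; edgeR adjusted p = 1), Mcm7 at 0.88 ± 0.31 log2 (SE; edgeR adjusted p = 1) and Rpa2 at 0.68 ± 0.24 log2 (SE; edgeR adjusted p = 1). The counts of 17 and 8 are therefore not shown to differ member by member.

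Other genes of the same pathways were counted beside the 40. Of 32 further replication genes, 19, 22, 24 and 24 were lower and 0, 3, 3 and 4 were higher of 30 tested in KO at 3, 6, 12 and 24 h, and 20, 23, 26 and 24 were lower and 1, 3, 3 and 6 were higher of 31 tested in WT. In this list Clspn, a mediator of the replication checkpoint, fell (−4.51 log2 in KO and −3.36 log2 in WT at 6 h), as did Cdc7, the kinase that fires origins (−3.80 log2 in KO and −3.17 log2 in WT at 6 h), whereas Timeless, a fork protection factor, rose (1.69 log2 in KO and 1.44 log2 in WT at 6 h), as did Mcmbp, which binds MCM subunits (1.32 log2 in KO and 1.24 log2 in WT at 6 h). Of 31 further genes of nucleotide metabolism, 9, 18, 20 and 20 were lower and 4, 2, 4 and 7 were higher of 31 tested in KO at the same 4 times, and 10, 17, 19 and 19 were lower and 5, 4, 4 and 7 were higher of 30 tested in WT. At 3 h the numbers lower were near the share of all genes in both genotypes. Samhd1, which degrades deoxynucleotides, rose (4.13 log2 in KO and 4.00 log2 in WT at 6 h), and so did Dck, a salvage kinase (2.49 log2 in KO and 2.32 log2 in WT at 6 h). Cad, which opens pyrimidine synthesis, fell (−3.67 log2 in KO and −3.28 log2 in WT at 12 h), as did Shmt2, a one-carbon enzyme of the mitochondrion (−3.30 log2 in KO and −3.09 log2 in WT at 24 h). Of 17 regulators of S phase entry, 10, 10, 9 and 10 were lower and 2, 4, 4 and 6 were higher of 17 tested in KO, and 9, 11, 9 and 10 were lower and 3, 4, 4 and 6 were higher of 17 tested in WT. The numbers of these regulators higher at 24 h were near the share of all genes in both genotypes. E2f2, an activating E2F, fell (−3.94 log2 in KO and −3.80 log2 in WT at 6 h), and Cdkn1a, which encodes the cell cycle inhibitor p21, rose (2.31 log2 in KO and 2.40 log2 in WT at 3 h). Of 21 mitosis genes, 18, 20, 20 and 21 were lower and 0, 0, 0 and 0 were higher of 21 tested in KO, and 18, 21, 21 and 21 were lower and 0, 0, 0 and 0 were higher of 21 tested in WT. At 24 h their median was −2.72 log2 in KO and −3.19 log2 in WT, beside −1.20 and −1.27 log2 for the 40 members. None of the genes in these 4 lists was called between KO and WT at any time (edgeR), beside 0% to 1.01% of all genes. At an unadjusted p under 0.05 there were 0 to 5 per time and list of 17 to 32 genes, beside 7.46% to 12.0% of all genes. The genes named here from the lists were chosen after their values were seen.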

How the data were processed

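RNA was measured by 3′ tag sequencing in 40 libraries, 4 per genotype and time. The authors deposited 1 table of unnormalized expected counts, with a row for each Ensembl gene. The submitters' processing notes name RSEM 1.3.3, STAR 2.7.10a, UMI-tools 1.1.2, cutadapt 3.7, FastQC 0.11.9 and build GRCm39, without order or role. Not given in the sources used here are the annotation release, strand handling and collapsing of molecular identifiers. All values were whole, and 0 value columns were left unused. Symbols came from GENCODE vM21 (52029 of 57010 identifiers), and no member's own coordinates in GRCm39 are given.

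From these counts, edgeR 4.0.16 in R 4.3.3 was run with filterByExpr (minimum count 10), TMM scaling, its quasi-likelihood F-test (robust, prior count 0.125) and Benjamini-Hochberg adjustment over all genes tested, at a threshold of 0.05, and was checked on simulated data. KO and WT were compared in the 8 libraries of a time, LPS times in the 20 libraries of a genotype, and differences of changes in 16 libraries. SE is the absolute log2 change over the square root of F, CPM use TMM-scaled totals, and all p are two-sided.

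Values in every library are given for 27 members: the 2 with the smallest p between KO and WT at each time, the largest and smallest change per role at 24 h in WT, and those called against most others. The members, lists and rules were chosen with earlier results of these data known. The labels call replicates biological without naming animals. All 60 replicate pairs differed by more than sampling noise (chi-square per degree of freedom 2.34 to 18.9). Alternatives were DESeq2 1.42.0, its size factors in edgeR, no filter, a replicate block, 1 fit of all 40 libraries, unscaled CPM and leaving out each replicate number of a genotype (its libraries at all times in a fit). The step from 12 to 24 h between genotypes, and leaving out KO replicate 3 with WT replicate 4, were added after seeing the data.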

Additional observations from a re-analysis of the deposited data

Results flagged for a closer look

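In 280 groups of 4 libraries (27 members and the sum of all 40, in 10 groups), 20 held a library whose gap to the nearest of the others passed Dixon's 95% critical value, where chance alone gives about 1 in 20 groups. Libraries far above the others in helicase and licensing genes of KO were Gins3 at 10.2 CPM in KO at 12 h, replicate 3 (the others 8.46 to 8.64 CPM), Mcm2 at 9.91 CPM in KO at 12 h, replicate 4 (the others 4.73 to 5.5 CPM), Mcm7 at 50.7 CPM in KO at 0 h, replicate 3 (the others 45.3 to 46 CPM), Mcm6 at 69.9 CPM in KO at 24 h, replicate 4 (the others 52.8 to 55.6 CPM) and Cdc45 at 2.76 CPM in KO at 6 h, replicate 4 (the others 1.67 to 1.8 CPM). In other roles, the high KO libraries were Rrm2 at 40.9 CPM in KO at 3 h, replicate 2 (the others 34.2 to 35.3 CPM), Rrm2 at 14.1 CPM in KO at 24 h, replicate 4 (the others 4.04 to 5.6 CPM) and Uhrf1 at 7.25 CPM in KO at 12 h, replicate 3 (the others 6.35 to 6.47 CPM). Low KO libraries were Fen1 at 14.7 CPM in KO at 6 h, replicate 2 (the others 18.3 to 19.1 CPM), Mcm4 at 35.2 CPM in KO at 24 h, replicate 2 (the others 41.5 to 42.7 CPM), Pola2 at 7.62 CPM in KO at 0 h, replicate 3 (the others 9.73 to 10.1 CPM) and Rrm1 at 32.8 CPM in KO at 6 h, replicate 2 (the others 36.7 to 37 CPM). WT libraries stood high for Rpa2 at 28.5 CPM in WT at 24 h, replicate 4 (the others 19.6 to 20.9 CPM), Cdc45 at 3.82 CPM in WT at 6 h, replicate 2 (the others 2.74 to 2.79 CPM) and Mcm10 at 25.4 CPM in WT at 0 h, replicate 1 (the others 17 to 18.2 CPM). WT libraries stood low for Rpa2 at 26.7 CPM in WT at 3 h, replicate 4 (the others 46.5 to 50.1 CPM), Mcm4 at 20.3 CPM in WT at 6 h, replicate 4 (the others 33.8 to 35.9 CPM), Pole at 3.47 CPM in WT at 3 h, replicate 4 (the others 6.38 to 6.76 CPM), Lig1 at 128 CPM in WT at 3 h, replicate 4 (the others 169 to 174.5 CPM) and Rfc2 at 19.6 CPM in WT at 6 h, replicate 2 (the others 23.1 to 23.3 CPM). Of these, Rpa2, Pole and Lig1 at 3 h and Mcm4 at 6 h were low in WT replicate 4, which carries Y-linked counts, and its part in these values was not tested.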

How the results depend on the processing

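Over all alternatives, 247 recomputed counts of called members stayed within 1.5 times the reported count and 6 did not. Among log2 changes of single genes, 10357 kept their side of the threshold and their direction (a turn of an uncalled change smaller than its SE counted as kept), 254 lost their call, 54 gained one and 6 turned direction. On unscaled totals 113 group means of CPM moved by more than their SD and 287 by less. Without the filter on low counts, KO against WT at 12 h called 2 members (Cdc6 and Mcm3) and the difference of changes at 12 h called 1 (Cdc6), against 0 each with it. In 1 fit of all 40 libraries KO against WT at 12 h called 1 (Cdc6). Leaving out 1 replicate number, with its libraries at all times of the fit, gave 17 to 27 members called in WT from 6 to 12 h (27 with all), and 7 to 16 from 12 to 24 h (16 with all). No test between KO and WT called a member when 1 replicate number of a genotype was left out. Changes that turned direction in this way ran from −0.007033 to 0.2434 log2 for Rrm2 in KO against WT at 0 h, from −0.2343 to 0.00134 log2 for Mcm6 at 6 h against 0 h in KO, and in WT from −0.7046 to 0.01149 log2 for Cdc6 from 3 to 6 h, from −0.7293 to 0.05578 log2 for Prim2 from 6 to 12 h and from −0.02038 to 0.1696 log2 for Cops6 at 3 h against 0 h. Rrm2 in KO against WT at 12 h ran from −0.6153 to −0.1329 log2, and was 0.05591 log2 without both KO replicate 3 and WT replicate 4. The cause was not tested.

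Replicate numbers were not taken to pair libraries in the main fits, although within a genotype libraries mostly matched their own number best, of 4 numbers. The main time tests within a genotype leave such a pairing out, and the replicate block takes it in. Deviations of same-numbered libraries correlated at −0.109 to 0.379 within KO over times and −0.00637 to 0.482 within WT, best with their own number in 62 of 80 and 69 of 80 cases. Between KO and WT they correlated at −0.274 to 0.162, best with their own number in 1 of 20 cases. With the replicate block, 0 members were called between KO and WT at every time and in every difference of changes, and 23, 37, 35 and 34 in KO and 23, 37, 32 and 35 in WT at 3, 6, 12 and 24 h against 0 h. In the tests of KO against WT at the same time, the block joins equal numbers of the genotypes. Such numbers did not match, so the 0 calls of these tests are no check on a pairing. Depth limits the lowest members: Cdc6, Pold2, Pole and Chaf1b had 15 to 20 counts in a group at some times, where only large changes can be measured.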
